A study of Homo sapiens with 6 samples.

Results

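The genes described here are those of blood coagulation, fibrinolysis and complement, chosen by symbol from a list of 57 and split into procoagulant, anticoagulant, fibrinolysis and complement genes. Of the 57, 54 were found in the deposited table in 55 rows of 23344, since CFB had 2 rows; F9, THBD and PLG were not analysed here. Huh7, an established human liver cancer cell line, had received either a control lentivirus (label shNC) or one against VersicanV1 (label sh2), an isoform of the matrix proteoglycan encoded by VCAN. RNA was sequenced from 3 libraries per group, both groups being lentivirus-treated cells of 1 line, and the knockdown arm bears the label of a single hairpin. No label states that replicates were separate cultures; the p-values therefore reflect the variation among these 6 libraries, which may be technical.

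Most clotting and complement proteins of plasma are made by hepatocytes, the parenchymal cells of the liver, and hepatoma lines keep part of this output. Coagulation starts when tissue factor, a membrane receptor, binds factor VII, and runs through factor X and prothrombin to thrombin, which turns fibrinogen into fibrin. Antithrombin, tissue factor pathway inhibitor and the protein C system restrain it, and plasmin dissolves the fibrin. Complement is a second protease cascade, in which the classical, lectin and alternative pathways meet at C3 and end in a pore built from the terminal components. Fibrinogen, C3 and factor B belong to the acute phase proteins, whose genes respond to cytokines such as interleukin-6 and interleukin-1.

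Promoters of 4 genes are shown because they belong to the gene with the largest difference on the log2(FPKM + 1) scale, tissue factor (F3), and to the fibrinogen chain genes, which lie next to each other on the chromosome and were the most abundant clotting transcripts. Each line gives the 250 bases before the annotated start, 5′ to 3′ on the gene's strand, from RefSeq (GRCh38.p14); for FGB the first of 2 annotated starts is used.
F3 promoter, chr1:94541760-94542009, minus strand: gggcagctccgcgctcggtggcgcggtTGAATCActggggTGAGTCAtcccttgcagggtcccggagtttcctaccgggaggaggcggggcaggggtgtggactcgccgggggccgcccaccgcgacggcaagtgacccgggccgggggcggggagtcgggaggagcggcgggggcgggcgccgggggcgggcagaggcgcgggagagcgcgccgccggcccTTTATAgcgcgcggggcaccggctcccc
FGA promoter, chr4:154590743-154590992, minus strand: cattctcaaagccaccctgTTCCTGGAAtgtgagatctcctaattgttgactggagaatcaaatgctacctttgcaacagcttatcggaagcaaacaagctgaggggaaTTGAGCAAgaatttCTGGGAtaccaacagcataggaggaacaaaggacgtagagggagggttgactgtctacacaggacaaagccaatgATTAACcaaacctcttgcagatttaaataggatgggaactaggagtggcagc
FGB promoter, chr4:154562730-154562979, plus strand: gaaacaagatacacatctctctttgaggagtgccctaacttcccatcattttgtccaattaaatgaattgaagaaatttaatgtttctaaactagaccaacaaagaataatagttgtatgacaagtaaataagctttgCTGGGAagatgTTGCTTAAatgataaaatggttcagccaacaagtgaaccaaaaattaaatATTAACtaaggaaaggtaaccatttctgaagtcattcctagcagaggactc
FGG promoter, chr4:154612657-154612906, minus strand: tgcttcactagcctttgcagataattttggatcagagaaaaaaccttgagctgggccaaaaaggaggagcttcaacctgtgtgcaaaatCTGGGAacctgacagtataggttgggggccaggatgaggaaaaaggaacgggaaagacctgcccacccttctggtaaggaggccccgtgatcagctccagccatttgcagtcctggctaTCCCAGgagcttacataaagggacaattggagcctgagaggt
Capitals mark letter matches on either strand. In F3 they are the AP-1 motif TGANTCA, bound by FOS and JUN dimers, and the TATA motif TATAAA. In the fibrinogen genes they are CTGGGA, known from interleukin-6 response elements, the C/EBP motif TTGCNNAA, the HNF1 motif GTTAAT and the STAT motif TTCNNNGAA; the fibrinogen windows were also searched for TATAAA. No match overlapped another.

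The F3 window held 2 AP-1 matches, beginning 223 and 210 bases before the start. An AP-1 match occurred in 6.57% of the 35116 windows in the table; counted by gene, 8.06% of all genes and 4 (9.09%) of the 44 listed genes with a promoter there had one in at least 1 window. CTGGGA stood in all 3 fibrinogen promoters, at 2 places in FGG. It is a common word, present in 28.7% of all windows, and 33.0% of all 27305 genes had it in some window. FGA and FGB each also held a C/EBP match, 141 and 101 bases before the start at its first base, and an HNF1 match, 52 and 51 bases before it, while the FGG window held neither. Of the 44 listed genes with a promoter in the table, 13 (29.5%) had a C/EBP match against 11% of all genes, and 11 (25%) had an HNF1 match against 7.5%. These are letter matches, not measured sites: of the listed genes with a promoter in the table, 13 were called higher in the knockdown libraries and 25 were tested and not called. A C/EBP match was found in 4 of the 13 and 9 of the 25, a STAT match in 3 and 8, an HNF1 match in 4 and 5, CTGGGA in 4 and 12, AP-1 in 2 and 2, the NF-kappa B consensus in 2 and 0, and TATAAA in 2 and 0. The NF-kappa B consensus and TATAAA were each rarer in the list, in 6.82% of the 44 against 11.8% and 13% of all genes. STAT stood in 29.5% of the 44 against 8.09% of all genes, and CTGGGA in 43.2% against 33.0%. Whether these shares differ was not tested.

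The deposited values were treated as FPKM, which is read density per length and library and so can be compared between genes, although the table names no unit. Values summed to between 851418 and 975501 per library, and absolute depth is unknown. For VCAN, whose row does not separate isoforms, the control libraries had 4.79, 6.24 and 8.10 FPKM, in replicate order here and below, and the knockdown libraries 1.90, 1.74 and 1.64 FPKM, so every knockdown library was lower (limma adjusted p = 0.0103). Over hepatocyte markers, all 10 chosen genes were present, with ALB between 3128 and 4006 FPKM. APOA1 rose by 1.05 and TTR fell by 1.19 on the log2 scale (limma adjusted p = 0.0325 and 0.00770). The other 8 were not called. Of 11 leukocyte markers, 10 had their highest value in knockdown replicate 2, where S100A8 was 17.9 FPKM against 0 in every other library. The summed leukocyte marker level was 208 there, 107 in each of the other knockdown libraries and 73.8 to 91.4 in control. Outside knockdown replicate 2, most of this sum came from CD14 and LYZ. CD14 had 45.6 to 70.2 FPKM in control and 57.1 to 72.5 FPKM in knockdown libraries and was not called. LYZ, a part of that sum, rose over all knockdown libraries, with 18.3 to 24.8 FPKM in control and 44.5, 68.2 and 37.8 FPKM in knockdown libraries (limma adjusted p = 0.0277). PTPRC, the common leukocyte antigen gene, was at 1.96 FPKM in knockdown replicate 2 and at or below 0.16 FPKM elsewhere. The 5 platelet and endothelial markers with a row summed to 15.0 FPKM in that library and to 0.08 to 0.72 FPKM in the others. Mitochondrially encoded genes took 16.0 to 19.2% of the control totals and 23.8 to 31.2% of the knockdown totals.

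Differences between groups were tested with limma after log2(FPKM + 1), using Benjamini-Hochberg adjustment over the 13696 genes that reached 1 FPKM in at least 3 libraries, and all fold changes below are on this scale, knockdown minus control. "Rose" and "fell" are used for an adjusted p below 0.05. Of the 55 rows, 48 were tested. The other 7 (C9, the second row of CFB, F13B, F8, MASP2, PLAT and SERPINC1) fell short of this filter. C6 and SERPING1 entered the test through their knockdown libraries alone, since every control value was below 1. Of the 48, 18 rose and 0 fell, and at an unadjusted p below 0.05 there were 29 higher and 1 lower. Over all genes tested, 4.15% rose and 3.94% fell, 8.08% in either direction. At an unadjusted p below 0.05, 1834 of the 13696 genes were higher and 2185 lower. Whether more cells express a gene or each cell holds more of its RNA cannot be told apart in bulk RNA.

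The median log2 fold change was 0.62 over the 48 genes and -0.03 over all genes tested. In 30 of the 48 genes every knockdown library was above every control library, against 14.4% of all genes tested. These 30 include C6 and SERPING1, whose separation was fixed by the filter, since they entered it through their knockdown libraries alone. In 3 (MASP1, CD46 and CLU) every knockdown library was below every control library, against 18.7% of all genes. Of the procoagulant genes 6 of 13 rose, of the anticoagulant genes 1 of 6, of the fibrinolysis genes 2 of 5 and of the complement genes 9 of 24; whether these shares differ from each other was not tested. Their medians were 0.52, 0.22, 0.74 and 0.66. The procoagulant genes that rose include FGL1, whose product is not a clotting factor. These counts describe the genes that passed the filter, not the whole list. Earlier results of these data were known when the list was chosen, so the counts are no independent test.

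**Figure D1:**
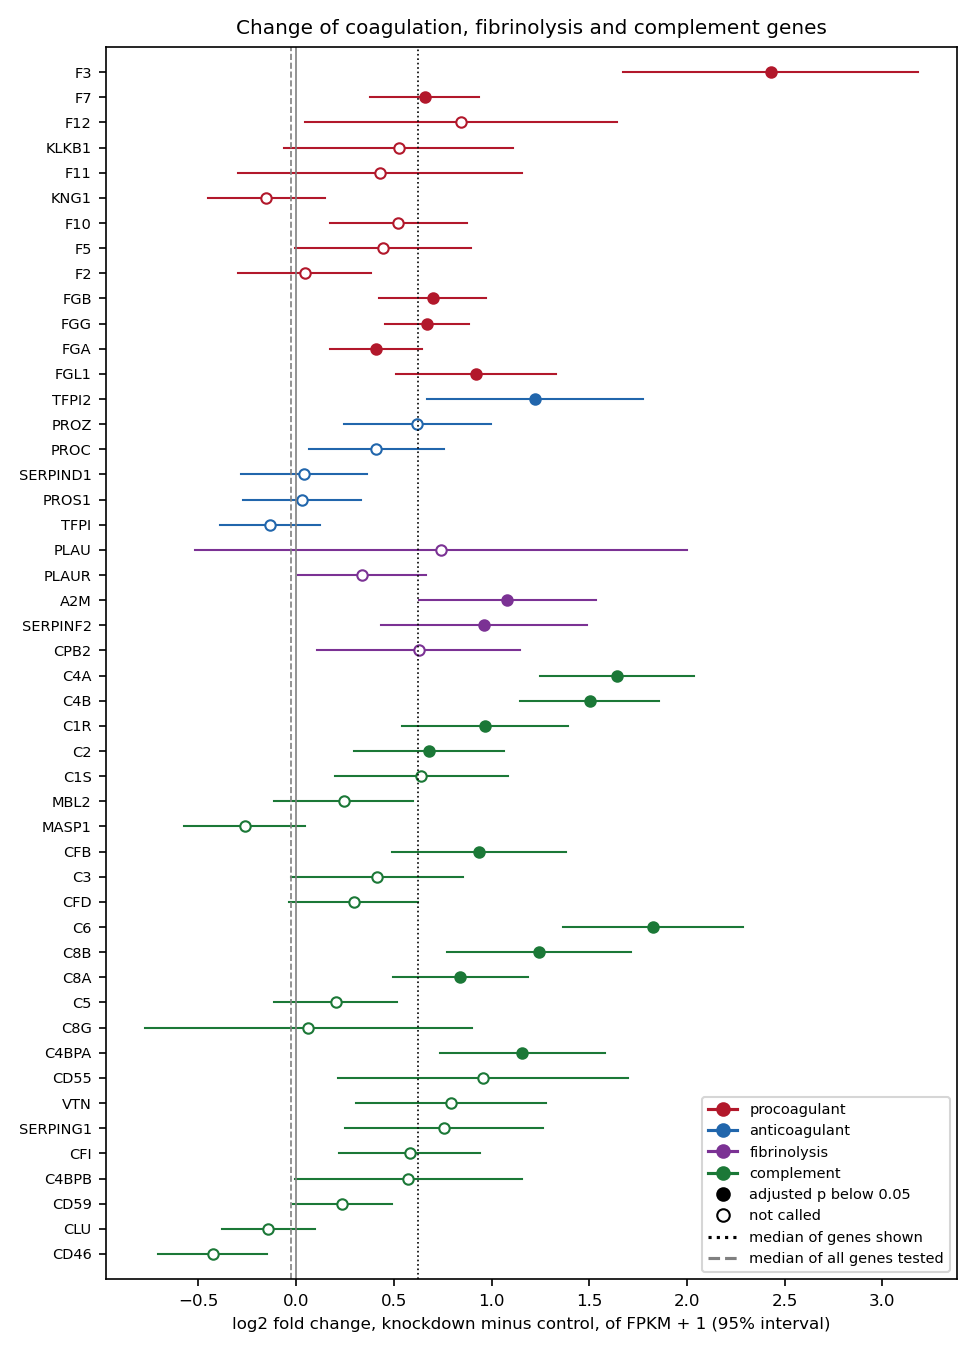
Log2 fold change (knockdown minus control, FPKM + 1) of the 48 tested genes with 95% limma intervals, coloured by group; filled points have an adjusted p below 0.05, and dotted and dashed lines mark the medians of these genes (0.62) and of all genes tested (-0.03). F3 lies farthest to the right at 2.43, and CD46 farthest to the left at -0.43.

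**Figure D2:**
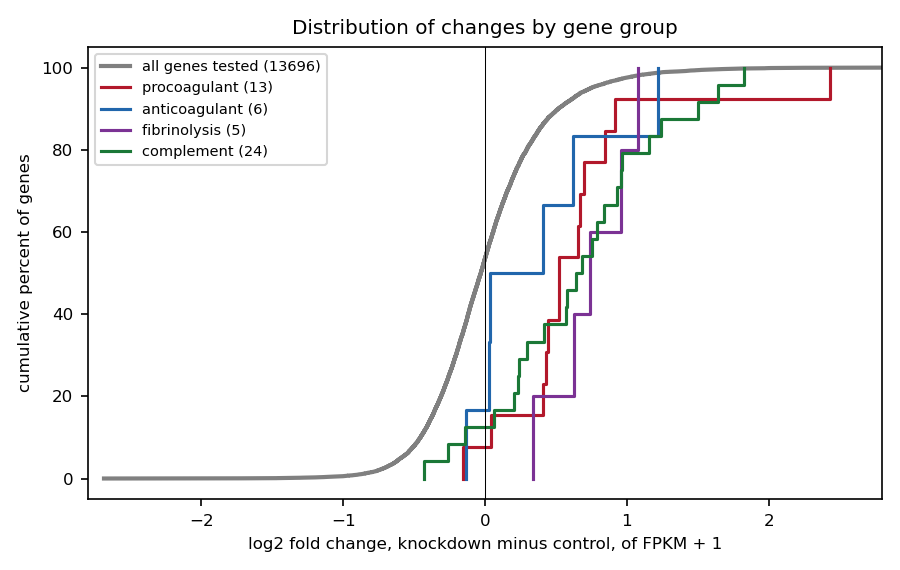
Cumulative percent of tested genes (y axis) at or below each log2 fold change (x axis) for the 4 gene groups and for all 13696 genes tested. The procoagulant, fibrinolysis and complement curves run to the right of the curve of all genes over most of their range, while 3 of the 6 anticoagulant genes lie near 0, between -0.14 and 0.04.

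F3, which encodes tissue factor, the initiator of clotting, had 3.42, 4.11 and 3.95 FPKM in control and 13.4, 27.7 and 41.2 FPKM in knockdown libraries. The groups were far apart, and the knockdown libraries varied widely, with replicate 1 lowest and replicate 3 highest. F3 rose by 2.43 (SE 0.33, 95% interval 1.68 to 3.18, limma adjusted p = 0.0103), a ratio of means of 7.17. Without control replicate 2 its adjusted p was 0.0517, with a log2 fold change of 2.47. F7 encodes factor VII, the protease that tissue factor activates. It had 12.2, 11.8 and 12.4 FPKM in control and 17.7, 20.7 and 20.8 FPKM in knockdown libraries, again without overlap, and rose by 0.66 (SE 0.12, adjusted p = 0.0220).

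The 3 genes that encode fibrinogen, the precursor of fibrin, were the most abundant procoagulant transcripts and rose together. FGB, the beta chain gene, had 1713, 1472 and 1401 FPKM in control and 2262, 2550 and 2620 FPKM in knockdown libraries (log2 fold change 0.70, SE 0.12, limma adjusted p = 0.0188). FGG, the gamma chain gene, had 650, 642 and 645 FPKM against 996, 1030 and 1055 FPKM (0.67, SE 0.095, limma adjusted p = 0.0109). The control libraries of FGG hardly differed, and its groups were wide apart. FGA, the alpha chain gene, had 639, 600 and 690 FPKM against 817, 891 and 851 FPKM and rose least (0.41, SE 0.10, limma adjusted p = 0.0488). The summed fibrinogen level went from 2715 to 3001 in control to 4075 to 4526 FPKM in knockdown libraries. FGB made up 51.2 to 57.1% of that sum in control and 55.5 to 57.9% in knockdown libraries, and FGA 21.3 to 25.2% and 18.8 to 20.1%, so the alpha chain's share was lower in every knockdown library. FGL1 encodes a secreted liver protein with a fibrinogen-like domain that is not a clotting factor. It had 60.7, 52.3 and 39.6 FPKM in control and 79.4, 101 and 109 FPKM in knockdown libraries and rose by 0.92 (SE 0.18, adjusted p = 0.0249). F13B, the carrier subunit of the fibrin cross-linking factor XIII, lay between 0.28 and 0.60 FPKM in control and 0.89 and 1.23 FPKM in knockdown libraries, below the filter.

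The remaining procoagulant genes gave no call. In the common pathway, F2, the prothrombin gene, had 54.6, 48.9 and 39.2 FPKM in control and 42.9, 49.9 and 53.7 FPKM in knockdown libraries. These ranges overlapped almost fully (log2 fold change 0.04, 95% interval -0.30 to 0.39, limma adjusted p = 0.875). F10, the factor X gene, had 57.4, 47.8 and 42.9 FPKM in control and 61.1, 69.6 and 83.5 FPKM in knockdown libraries. Its groups did not overlap, but it did not pass (0.52, adjusted p = 0.0691); it passed after the rescaling described below. F7 and F10 are neighbours on the chromosome. F5, the gene of factor V, the cofactor of factor Xa, overlapped between groups (18.5 to 24.3 against 22.3 to 38.7 FPKM).

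Of the intrinsic pathway and contact system, KNG1, the kininogen gene, was the most abundant at 33.4 to 44.1 FPKM in control and 34.8 to 36.8 FPKM in knockdown libraries (log2 fold change -0.15, limma adjusted p = 0.475). F12 and F11, the genes of factors XII and XI, and KLKB1, which encodes prekallikrein, were all below 8 FPKM. Their groups overlapped, with log2 fold changes of 0.84, 0.43 and 0.52. F8, the factor VIII gene, which the liver's endothelial cells rather than hepatocytes are known to express, was between 0.59 and 1.57 FPKM. None of the 4 tested genes of this branch passed, and 1 of them, F12, was higher at an unadjusted p below 0.05.

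Of the 6 tested anticoagulant genes on the list, TFPI2 alone rose. This gene encodes a Kunitz-type protease inhibitor found in the extracellular matrix. It had 1.21, 1.44 and 1.38 FPKM in control and 7.12, 3.49 and 3.47 FPKM in knockdown libraries, with knockdown replicate 1 well above the others (log2 fold change 1.22, SE 0.24, limma adjusted p = 0.0265). TFPI encodes tissue factor pathway inhibitor, which blocks the tissue factor and factor VIIa complex. Its 55.4, 49.1 and 50.8 FPKM in control and 43.6, 47.3 and 50.3 FPKM in knockdown libraries overlapped (log2 fold change -0.14, 95% interval -0.39 to 0.12, adjusted p = 0.458). The level of TFPI was therefore 11.9 to 16.2 times that of F3 in control and 1.22 to 3.24 times that of F3 in knockdown libraries.

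In the protein C pathway, PROC, the protein C gene, had 35.0, 26.0 and 31.6 FPKM in control and 35.0, 43.1 and 45.8 FPKM in knockdown libraries, whose lowest value lay barely above the highest control, and did not pass (log2 fold change 0.41, limma adjusted p = 0.119). PROS1, which encodes the cofactor protein S, was the most abundant anticoagulant gene, at 81.8 to 97.0 FPKM in control and 76.2 to 98.1 FPKM in knockdown libraries (0.03, 95% interval -0.27 to 0.33). PROZ, the gene of protein Z, had 3.63 to 4.81 FPKM and 5.72 to 7.81 FPKM, without overlap, and missed the threshold (0.62, adjusted p = 0.0540). SERPIND1, the heparin cofactor II gene, stayed at 39.5 to 55.2 FPKM over all 6 libraries (0.04, 95% interval -0.28 to 0.36). SERPINC1, which encodes antithrombin, a major plasma inhibitor made by the liver, was at 0.30, 0.28 and 0.14 FPKM in control and 0.71, 0.23 and 0.58 FPKM in knockdown libraries, below the filter, and was not called in the fit without a filter.

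The fibrinolysis genes were mostly low. PLAU encodes urokinase, a plasminogen activator. It had 1.30, 1.38 and 3.00 FPKM in control and 0.81, 5.20 and 8.10 FPKM in knockdown libraries, so knockdown replicate 1 was below every control library and the other knockdown libraries above them all (log2 fold change 0.74, SE 0.55, limma adjusted p = 0.407). Without knockdown replicate 1 the log2 fold change of PLAU was 1.43, with an adjusted p of 0.00926. In that fit 24.5% of all genes were called, and PLAU passed in none of the other 10 alternative fits described below. PLAUR, the urokinase receptor gene, had 7.61, 7.31 and 8.38 FPKM against 10.5, 11.3 and 8.54 FPKM and did not pass (0.34, adjusted p = 0.164). PLAT, the tissue plasminogen activator gene, was at 0.28, 0.39 and 0.28 FPKM in control and 0.40, 0.52 and 0.34 FPKM in knockdown libraries and was not tested.

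Of the 3 inhibitors on the fibrinolysis list, 2 rose. SERPINF2 encodes alpha-2-antiplasmin, which inactivates plasmin. It had 18.3, 14.0 and 12.8 FPKM in control and 21.0, 31.2 and 40.5 FPKM in knockdown libraries (log2 fold change 0.96, SE 0.23, limma adjusted p = 0.0423). A2M, the gene of the broad protease inhibitor alpha-2-macroglobulin, had 2.60, 2.21 and 2.47 FPKM against 4.40, 7.34 and 7.43 FPKM (1.08, SE 0.20, limma adjusted p = 0.0217). In both, knockdown replicate 1 was the lowest knockdown library yet above every control library. CPB2, which encodes a carboxypeptidase that protects fibrin from lysis, had 11.8 to 14.9 FPKM in control and 14.3, 24.0 and 28.2 FPKM in knockdown libraries; the groups overlapped, and it did not pass (0.63, adjusted p = 0.114).

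**Figure D3:**
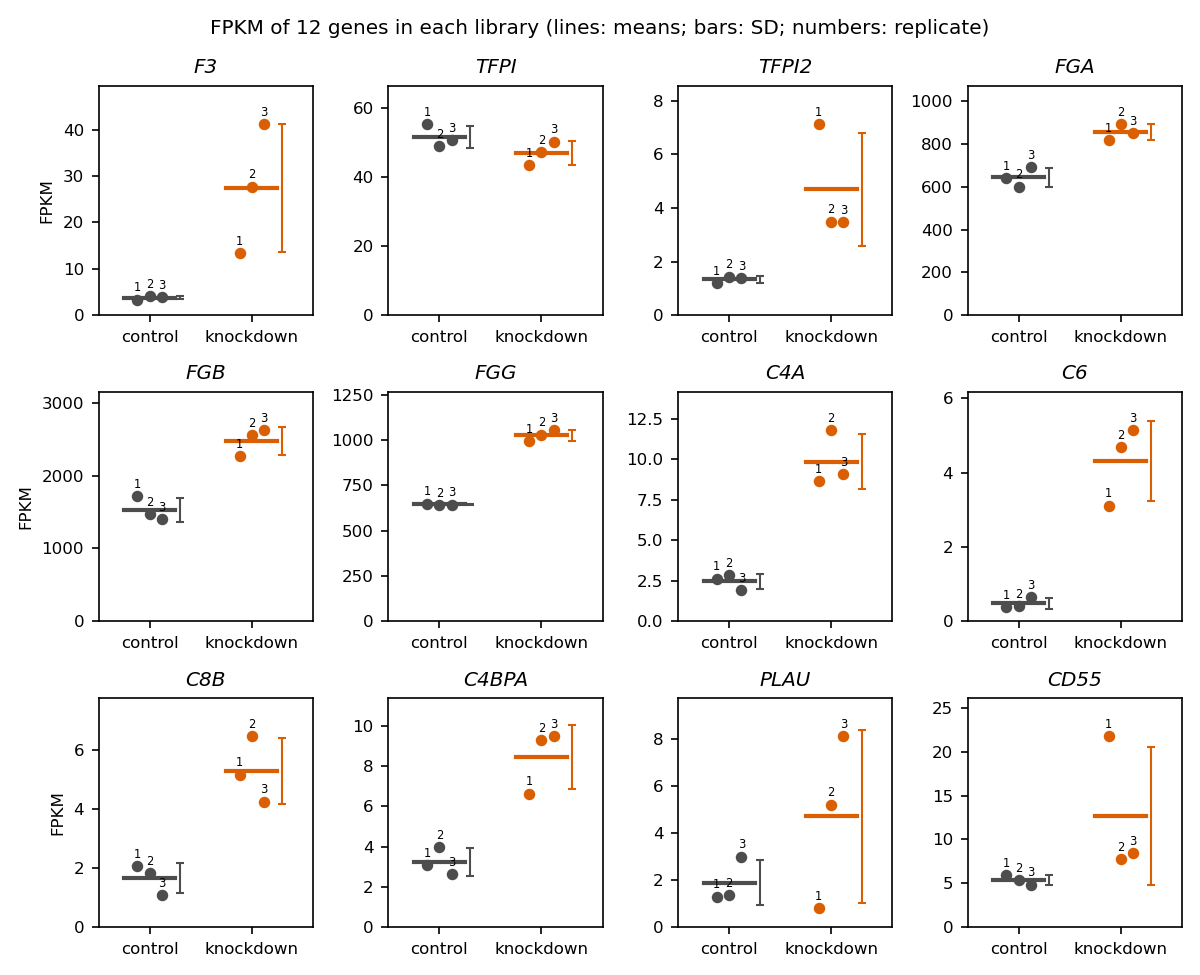
FPKM (y axis, from 0) of 12 genes in each control and knockdown library; points are libraries with their replicate number, horizontal lines group means and vertical bars SD (n = 3). F3, C6 and C4A separate the groups by several times, TFPI overlaps, and knockdown replicate 1 is the highest knockdown library for TFPI2 and CD55 and the lowest for PLAU.

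In the classical and lectin pathways of complement, 4 of 7 tested genes rose, counting C4A and C4B separately. C4A and C4B encode the isotypes of C4, which is cleaved by C1s and forms part of the C3 convertase. C4A had 2.64, 2.84 and 1.94 FPKM in control and 8.67, 11.8 and 9.10 FPKM in knockdown libraries (log2 fold change 1.64, SE 0.17, limma adjusted p = 0.00648). C4B had 2.62, 2.02 and 2.55 FPKM against 8.54, 9.79 and 7.57 FPKM (1.50, SE 0.16, limma adjusted p = 0.00648). The groups were apart in both, by a ratio of means of 3.99 and 3.60. The genes are near-identical neighbours, so how their reads were divided is uncertain and the pair is best read as a sum, which was 4.49 to 5.26 FPKM in control and 16.7 to 21.6 FPKM in knockdown libraries.

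C1R encodes the protease that activates C1s within the first complement component. It had 12.01, 16.4 and 14.4 FPKM in control and 21.8, 32.8 and 32.7 FPKM in knockdown libraries and rose by 0.97 (SE 0.19, adjusted p = 0.0238). Its neighbour C1S had 10.9, 19.0 and 14.9 FPKM against 20.3, 23.9 and 26.0 FPKM; the groups were apart, but the gene did not pass (log2 fold change 0.64, limma adjusted p = 0.0747). C2, whose product is the protease subunit of the classical C3 convertase, had 7.81, 7.15 and 5.86 FPKM against 9.45, 13.3 and 12.6 FPKM and rose by 0.68 (adjusted p = 0.0450). Of the lectin pathway, MBL2, the mannose-binding lectin gene, was at 1.57 to 1.77 FPKM in control and 1.95 to 2.35 FPKM in knockdown libraries (0.24, adjusted p = 0.339). MASP1, a protease gene of that pathway, had 10.97 to 12.9 FPKM in control and 8.75 to 10.96 FPKM in knockdown libraries, so its groups touched, and was not called (-0.26, adjusted p = 0.238). MASP2 was below 0.5 FPKM throughout.

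C3, the component on which the pathways converge, was the most abundant complement gene after CLU. It had 1188, 765 and 809 FPKM in control and 1081, 1089 and 1479 FPKM in knockdown libraries, which overlapped because of control replicate 1 (log2 fold change 0.41, SE 0.19, limma adjusted p = 0.193). CFB encodes factor B, the protease of the alternative pathway convertase. It had 3.65, 1.97 and 2.73 FPKM against 5.20, 6.47 and 6.75 FPKM and rose by 0.93 (SE 0.20, adjusted p = 0.0302). The second CFB row, which carries another gene ID, stayed at or below 0.31 FPKM. CFD, the gene of factor D, which cleaves factor B, had 5.44 to 5.70 FPKM and 6.39 to 8.29 FPKM and did not pass (0.30, adjusted p = 0.214).

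Among the terminal components, whose products assemble the membrane attack complex, 3 of 5 tested genes rose. C6 had 0.38, 0.41 and 0.66 FPKM in control and 3.11, 4.69 and 5.14 FPKM in knockdown libraries, a ratio of means of 8.92 (log2 fold change 1.82, SE 0.20, limma adjusted p = 0.00702). The control values are low, and C6 entered the test through its knockdown libraries. C8A and C8B, neighbouring genes for the alpha and beta chains of C8, had 2.36 to 2.95 and 1.08 to 2.07 FPKM in control and 4.93 to 6.02 and 4.24 to 6.45 FPKM in knockdown libraries. C8A rose by 0.84 (adjusted p = 0.0212) and C8B by 1.24 (adjusted p = 0.0170). C8G, the gene of the third C8 chain, which lies elsewhere, had 7.67, 3.22 and 3.70 FPKM against 3.03, 3.95 and 8.83 FPKM, with no separation (0.06, 95% interval -0.77 to 0.90). C5, the most abundant terminal gene, had 296, 301 and 256 FPKM against 272, 347 and 367 FPKM (0.20, adjusted p = 0.367). C9 was at or below 0.12 FPKM in each library.

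Of 9 complement regulators, 1 passed. C4BPA encodes the alpha chain of C4b-binding protein, a plasma inhibitor of the classical pathway. It had 3.07, 3.99 and 2.63 FPKM in control and 6.63, 9.26 and 9.47 FPKM in knockdown libraries (log2 fold change 1.16, SE 0.19, limma adjusted p = 0.0154). Its neighbour C4BPB, for the beta chain, overlapped (1.85 to 3.99 against 3.08 to 5.14 FPKM; 0.57, adjusted p = 0.174). CFI, the gene of factor I, which degrades C3b and C4b, had 113, 122 and 105 FPKM against 133, 184 and 200 FPKM and missed the threshold (0.58, adjusted p = 0.0570). VTN encodes vitronectin, which holds the terminal complex in solution. It had 196, 188 and 173 FPKM against 220, 363 and 416 FPKM, with groups apart, and missed it as well (0.79, SE 0.21, adjusted p = 0.0552). SERPING1, the C1 inhibitor gene, was at 0.17 to 0.61 FPKM in control and 1.00 to 1.69 FPKM in knockdown libraries (0.76, adjusted p = 0.0686).

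The 3 membrane regulators did not share a direction. CD55, the gene of decay-accelerating factor, had 5.95, 5.37 and 4.85 FPKM in control and 21.7, 7.79 and 8.47 FPKM in knockdown libraries, with knockdown replicate 1 far above the rest (log2 fold change 0.96, SE 0.33, limma adjusted p = 0.0988). Without that library the log2 fold change of CD55 was 0.52, with an adjusted p of 0.0332. CD46, which encodes a cofactor for factor I, had 90.4, 105 and 88.8 FPKM against 78.4, 68.5 and 64.0 FPKM, lower in each knockdown library (-0.43, SE 0.12, adjusted p = 0.0657). Without knockdown replicate 1 CD46 was called lower (-0.51, adjusted p = 0.0146). In that fit 24.5% of all genes were called, and neither CD55 nor CD46 passed in the other 10 alternative fits described below. CD59, the inhibitor of the terminal pore, had 75.9 to 88.0 FPKM and 89.6 to 103 FPKM (0.24, adjusted p = 0.198). CLU, which encodes clusterin, a chaperone that also binds terminal complexes, was the second most abundant of the listed genes. It had 1527, 1511 and 1425 FPKM in control and 1239, 1397 and 1407 FPKM in knockdown libraries. Its groups were apart by a small margin (-0.14, adjusted p = 0.395), and its log2 fold change was 0.026 after quantile normalization.

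The 55 rows together made up 0.687 to 0.750% of the control totals and 0.830 to 0.971% of the knockdown totals. By their mean over all libraries, 8 rows were at 100 FPKM or more, 18 at 10 to 100, 21 at 1 to 10 and 8 below 1. FGB, CLU, C3, FGG and FGA held 79.4% of the summed level, so this sum follows few genes. Called genes ranged from FGB at 2003 FPKM to C6 at 2.40 FPKM, and no row below that was called. Measured against the control mean, the median log2 difference of the 48 genes was 0.34, 0.67 and 0.80 in knockdown replicates 1, 2 and 3. Of the 18 genes that rose, 15 had their lowest knockdown value in replicate 1, and TFPI2, C4B and C8B had it in replicate 3.

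**Figure D4:**
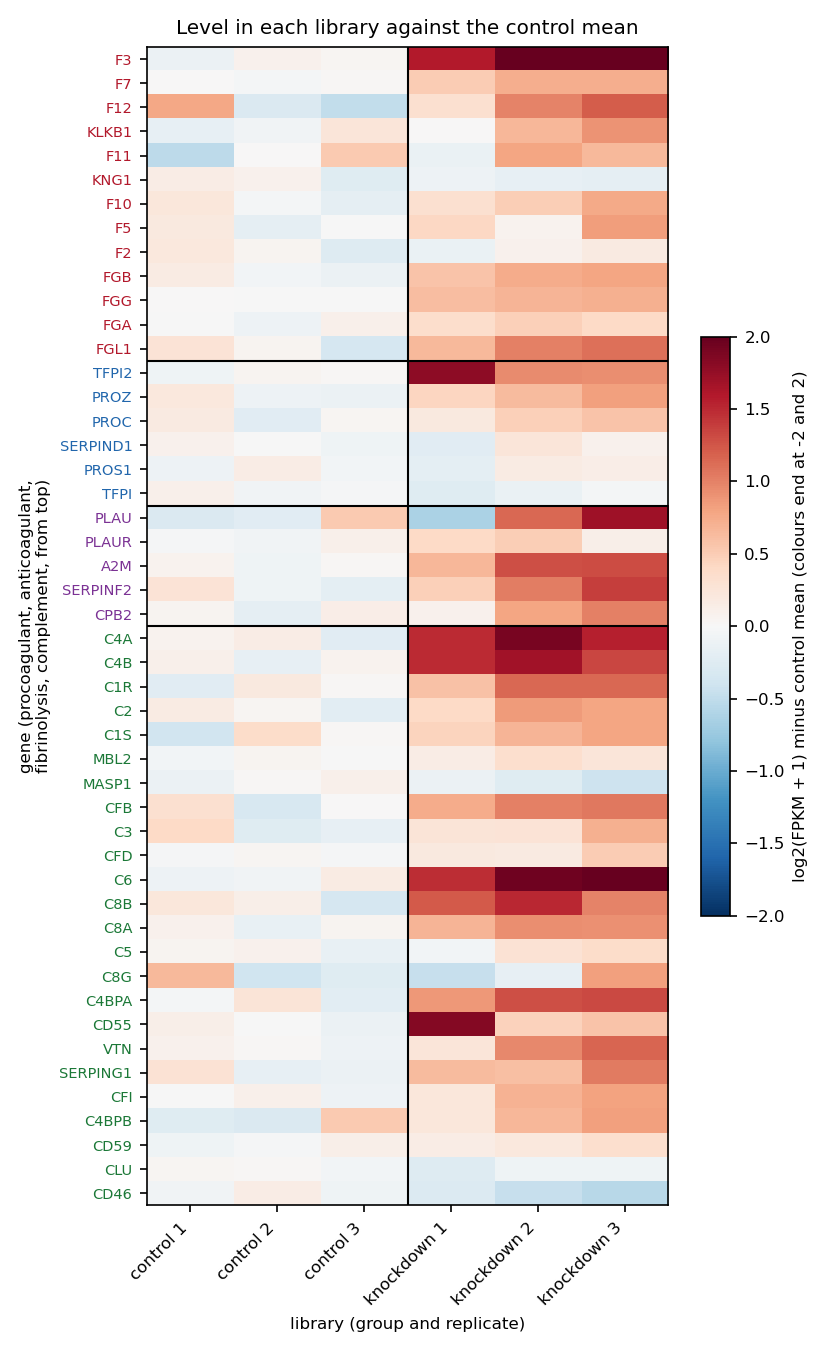
Difference of log2(FPKM + 1) from the control mean (colour, ending at -2 and 2) for the 48 tested genes (rows) in the 6 libraries (columns). Knockdown replicate 1 is paler than the other knockdown libraries for most genes, with TFPI2 and CD55 darkest there.

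Which genes passed depended on the libraries used. C4A and C4B passed in all 11 alternatives, and C6 in the 8 in which it was tested. C4A and C4B are counted separately here and in the totals above, although how their reads were divided is uncertain. C6 was not tested when any 1 knockdown library was left out, since it then fell below the filter. Its call was therefore never checked against the libraries in which it was high, unlike those of C4A and C4B. F3 passed in 10 alternatives, FGG in 9, C8B in 8, FGB and C4BPA in 7 and TFPI2 in 6. C8A, A2M, F7 and C1R passed in 5 of the 11, and FGL1, CFB, SERPINF2, C2 and FGA in 4. All 18 kept the same sign in each alternative that tested them. Leaving out control replicate 1 left 7 genes (with 1.23% of all genes called), control replicate 2 left 3 (0.414%) and control replicate 3 left 6 (1.81%). C4A, C4B and C6 were among them each time and, without control replicate 2, were the only ones. Without knockdown replicate 1, 28 of 46 genes passed, 27 higher and 1 lower, while 24.5% of all genes were called, 11.7% higher and 12.8% lower. Without knockdown replicate 2, the library with leukocyte and platelet transcripts, C4A, C4B and F3 passed, with 0.83% of all genes called, and without knockdown replicate 3 the number was 7, with 1.45%. Without that replicate 2, F3 had a log2 fold change of 2.36.

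A pseudocount of 0.1 and quantile normalization gave the same 18 genes, with 7.78% and 7.26% of all genes called. With the replicate number as a block 13 passed (6.29%); C2, CFB, FGA, FGL1 and SERPINF2 did not. With no filter on low values 7 genes passed (C4A, C4B, C4BPA, C6, F3, FGB and FGG), with 0.947% of all genes called. After the 13 mitochondrially encoded genes were removed and the remaining values rescaled, the 18 genes passed again with F10 and PROZ, 20 in all (6.6% of all genes). Over all genes that rescaling gave 680 higher and 223 lower calls, against 568 and 539 without it. The mitochondrially encoded share moved with the groups; beyond this rescaling its part in the results was not tested, nor was that of the leukocyte and platelet transcripts beyond leaving out their library.

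**Figure D5:**
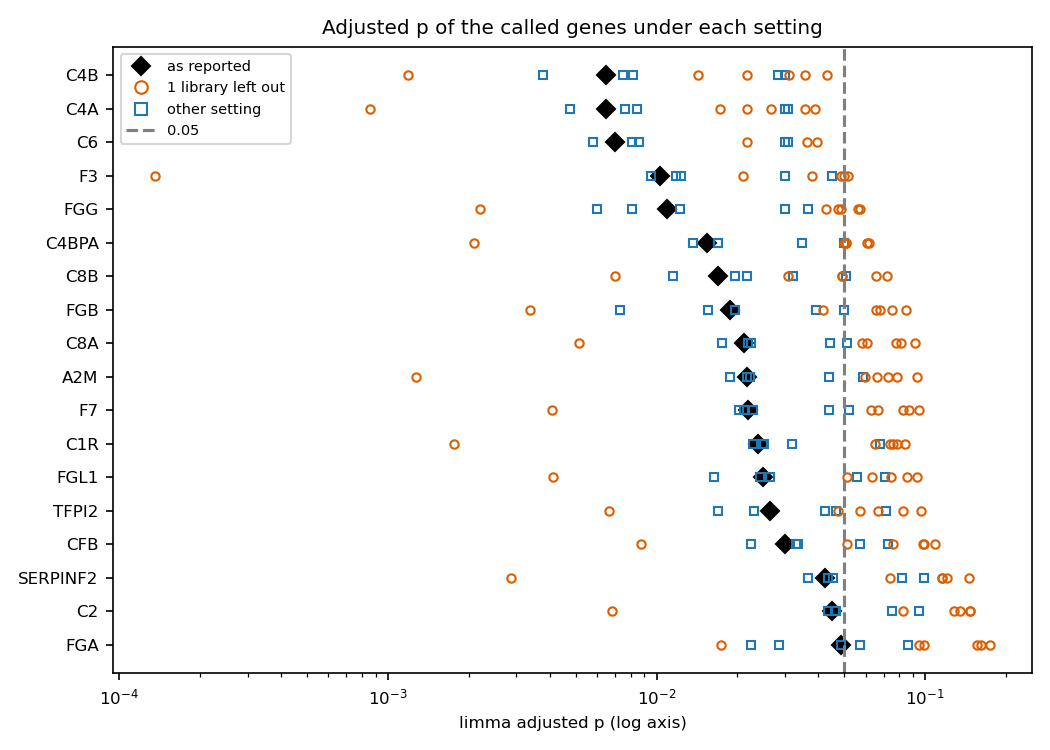
Limma adjusted p (x axis, log scale) of the 18 genes that rose, as reported (diamonds), with 1 library left out (circles) and under other settings (squares); the dashed line is 0.05. All symbols of C4A, C4B and C6 lie left of the line, and those of the other 15 genes lie on both sides. C6 has no symbol for the fits without a knockdown library, in which it was not tested.

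Related genes outside the list were taken from 2 further lists, also chosen with earlier results of these data known. Of 25 other coagulation and fibrinolysis genes, 17 were tested, and 3 rose and 0 fell (3 higher and 2 lower at an unadjusted p below 0.05), with a median of 0.17. Of all 13696 genes tested, 4.15% rose, and 1834 were higher and 2185 lower at that unadjusted threshold. Whether this list differs from all genes was not tested. F2RL1, which encodes PAR2, a receptor cleaved by the tissue factor and factor VIIa complex, had 4.59, 5.72 and 5.83 FPKM in control and 12.8, 13.9 and 14.1 FPKM in knockdown libraries (log2 fold change 1.20, SE 0.14, limma adjusted p = 0.00770). It passed in all 11 alternatives. The thrombin receptor gene F2R was low, at 1.65 to 2.06 and 2.17 to 2.55 FPKM (0.24, adjusted p = 0.343). SERPINE2, which encodes protease nexin 1, an inhibitor of thrombin and urokinase, had 11.5, 8.75 and 9.50 FPKM against 35.1, 18.4 and 20.0 FPKM and rose by 1.17 (adjusted p = 0.0258). S100A10, which encodes a cell-surface partner of plasminogen, rose by 0.60 (825 to 1258 FPKM in the means, adjusted p = 0.0448). GGCX, the carboxylase that vitamin K-dependent factors need, and LMAN1, the cargo receptor of factors V and VIII, did not pass (-0.15 and -0.24).

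Of 25 other complement genes, 6 were tested, of which 1 rose and 0 fell (3 higher and 1 lower at an unadjusted p below 0.05). Over all 13696 genes tested, 4.15% rose and 3.94% fell, and 1834 were higher and 2185 lower at that unadjusted threshold. Whether these complement genes differ from all genes was not tested. FCN1, a ficolin gene of myeloid cells, was at 5.46 FPKM in knockdown replicate 2 and at 0 in the other libraries, and F13A1, the catalytic subunit gene of factor XIII, at 1.01 and 0.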

How the data were processed

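RNA of 6 Huh7 libraries, prepared with an Illumina TruSeq kit per the labels' protocols, was grouped and numbered by library title. The authors deposited 1 table of length- and depth-normalized values, treated as FPKM; TPM of an incomplete gene set remains possible. Without roles, the submitters' processing notes list RSEM 1.1.17, DESeq2 1.16.1, edgeR 3.18.1, Bowtie2 2.2.6, Trimmomatic 0.36 and bcl2fastq 2.19.0, and the mouse build mm10, although all gene IDs are human; the annotation was not given in the sources used here. Depth is unknown, so no counting intervals were computed. Strandedness is not stated, so overlapping genes cannot be told apart.

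The limma test (limma 3.58.1, R 4.3.3) was two-sided, robust and with an intensity trend, and was checked on simulated data. Differences were simulated only in genes at higher levels, so the check does not cover low called genes such as C6 and TFPI2. Every listed gene is named: called genes and a fixed set with each library's value, others mostly by range; of the related genes, those called and a fixed set are named, except some that are not reported here. The list, related lists and markers were chosen with earlier results of these data known. Promoter letters were searched on both strands.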

Additional observations from a re-analysis of the deposited data

How the results depend on the processing

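A pseudocount of 0.1 and quantile normalization left the same 18 listed genes called. With no filter on low values 221 genes were called in all, 7 of them listed: 3 procoagulant, 0 anticoagulant, 0 fibrinolysis and 4 complement, and 1 other coagulation gene. The rescaling without mitochondrially encoded genes gave 2 anticoagulant genes. With 1 library left out, the calls ranged from 56 to 3284 over all genes, from 3 to 28 over the list, from 0 to 8 for procoagulant, 0 to 3 for anticoagulant, 0 to 4 for fibrinolysis and 2 to 13 for complement genes, and from 1 to 7 and 0 to 4 for the other coagulation and other complement genes. VCAN had a log2 fold change from -1.56 to -1.23 with 1 library left out, and an adjusted p of 0.0537 without control replicate 2 (log2 fold change -1.40). Leaving out knockdown replicate 1 gave the highest of these counts, above those with all 6 libraries, and the cause was not tested.

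Signs reversed only among genes that were not called. With 1 library left out, the log2 fold change ran from -0.086 to 0.148 for F2, -0.066 to 0.17 for SERPIND1, -0.034 to 0.146 for PROS1, -0.316 to 0.384 for C8G and -0.253 to 0.053 for GGCX, and CLU had 0.026 with quantile normalization.

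Deviations from the group means of same-numbered libraries correlated at 0.05, 0.11 and 0.14 across genes, and those of differently numbered libraries at -0.21 to 0.094. These values do not settle whether the numbers pair the libraries, and the main fit took the libraries as unpaired. The fit with the replicate block called 861 genes in all and 13 listed ones (4 procoagulant, 1 anticoagulant, 1 fibrinolysis and 7 complement, with 3 other coagulation genes and 1 other complement gene), and gave VCAN -1.40 with an adjusted p of 0.0335.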
